A study of Mus musculus with 79 samples.

Results

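The genes described here are 10 genes that mark osteoclasts, the multinucleated cells that resorb bone: Tnfrsf11a, Oscar, Calcr, Nfatc1, Dcstamp, Ocstamp, Itgb3, Acp5, Ctsk and Atp6v0d2. They were chosen by gene symbol from 39063 rows with a gene ID. All 10 were among the 14873 genes tested, those that averaged 0.4 TPM or more across the 79 libraries. TPM is a transcript level scaled for gene length and for the size of the library. The libraries came from 51 mice on a mixed SJLxC57BL6 background, aged 4 to 5 months per the design text (the study's figure legends give a somewhat wider span, and an older one for males with insulin pellets). Caudal vertebrae (CV), the tail bones with adipocyte-rich marrow, gave 51 libraries. Lumbar vertebrae (LV) gave 18 libraries from the females, and inguinal white adipose tissue (iWAT) gave 10 from WT females and served as a non-bone background.

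WT mice were BMAd-Pnpla2+/+ littermates, and cKO mice were BMAd-Pnpla2-/-, which lack the lipase ATGL in bone marrow adipocytes. The promoter that drives the recombinase is not given in the sources used here. Mice received PBS or 100 ng per hour leptin into the brain ventricles (ICV) for 9 days, were housed singly and were pair-fed, and mice with pump or surgery failure had been excluded from the study. CV libraries with PBS and with leptin numbered 5 and 5 from female WT, 4 and 4 from female cKO, 5 and 8 from male WT, and 5 and 4 from male cKO mice. Male WT mice that also carried a subcutaneous insulin pellet gave 5 CV libraries with PBS and 6 with leptin. LV libraries with PBS and leptin numbered 5 and 5 for WT and 4 and 4 for cKO, and iWAT libraries numbered 5 and 5. Each replicate was a separate mouse, and CV, LV and iWAT libraries of the same replicate number came from the same mouse.

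Osteoclasts form when precursors of the monocyte lineage receive RANKL through its receptor RANK, with a costimulatory signal through immunoglobulin-like receptors such as OSCAR. The transcription factor NFATc1 then switches on the genes for cell fusion, attachment to bone, acid secretion and matrix digestion. In the skeleton RANKL comes largely from cells of the osteoblast lineage, and its decoy receptor osteoprotegerin limits how much reaches the precursors.

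By the GRCm38.p6 annotation and gene ID, the receptor genes lie at chr1:105780673-105849444 (Tnfrsf11a, 21934), chr7:3609813-3616157 (Oscar, 232790) and chr6:3685678-3764713 (Calcr, 12311). The fusion genes lie at chr15:39745930-39760938 (Dcstamp, 75766) and chr2:165395450-165400394 (Ocstamp, 74614), and the integrin gene at chr11:104608000-104670476 (Itgb3, 16416). The resorption genes lie at chr9:22126727-22135746 (Acp5, 11433), chr3:95499210-95509387 (Ctsk, 13038) and chr4:19876838-19922566 (Atp6v0d2, 242341), and Nfatc1 (18018) lies on chromosome 18. Calcr overlaps Mir653, Mir489 and Gm33576, and Nfatc1 overlaps Gm52342. As the strand setting of the counting is not given, reads of such overlaps cannot be assigned to 1 gene with certainty.

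Total counts ran from 16100377 to 19364106 per CV library, from 28717516 to 29757254 in LV and from 17638318 to 19100698 in iWAT. In female WT CV the total was 17594259 to 18042292 with PBS and 18397001 to 19364106 with leptin, so depth moved with treatment there. Pnpla2, the targeted gene, had a median of 228.1 to 261.31 TPM in the WT CV groups with PBS and of 160.64 to 165.29 TPM in the cKO CV groups with PBS, in RNA of the whole bone. Of the CV libraries, 3 stood apart on the sum of the 10 genes. Female WT CV PBS replicate 3 summed to 2608 TPM against 830 to 1255 in the other mice of its group, and its neutrophil markers summed to 11770 against 2248 to 7211 TPM. Female cKO CV leptin replicate 1 summed to 10040 against 2300 to 5794 TPM, with neutrophil markers at 11030 against 1704 to 6571 TPM. Male cKO CV leptin replicate 1 summed to 1170 against 470 to 533.3 TPM, with osteoblast markers at 3374 against 1220 to 1994 TPM.

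The start regions of 3 of the genes are shown because the genes moved together across libraries. Of the 10 genes, 5 had start windows in the RefSeq table for GRCm38.p6 with 8 windows between them, and in each the 250 bases before the start were searched on both strands. Capitals mark the letters TGGAAA (an NFAT core), GAGGAA (a PU.1 core) and CANGTG (an E-box) or their reverse complements. CANGTG leaves a base open, so its matches are not tied to any named factor. Bases of a window that lie inside an annotated gene are not printed.
Ctsk, chr3:95498960-95499209, plus strand: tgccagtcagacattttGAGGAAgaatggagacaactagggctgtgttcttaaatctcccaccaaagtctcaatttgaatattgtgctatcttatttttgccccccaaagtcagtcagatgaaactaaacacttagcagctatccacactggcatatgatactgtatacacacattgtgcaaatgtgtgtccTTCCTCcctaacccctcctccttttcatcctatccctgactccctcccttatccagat
Oscar, chr7:3616158-3616407, minus strand: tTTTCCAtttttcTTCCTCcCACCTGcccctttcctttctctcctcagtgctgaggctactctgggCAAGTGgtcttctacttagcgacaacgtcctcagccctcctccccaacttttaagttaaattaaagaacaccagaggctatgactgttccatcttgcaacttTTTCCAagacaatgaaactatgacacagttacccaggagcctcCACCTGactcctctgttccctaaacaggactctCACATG
Tnfrsf11a, chr1:105780473-105780672, plus strand: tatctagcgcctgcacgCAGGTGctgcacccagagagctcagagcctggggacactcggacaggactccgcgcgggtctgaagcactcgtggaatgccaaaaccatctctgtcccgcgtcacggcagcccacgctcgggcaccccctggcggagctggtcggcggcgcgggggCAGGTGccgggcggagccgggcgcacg
TGGAAA was in 2 of the 8 windows against 18.6% of 32851 windows of all genes, GAGGAA in 2 against 23.3%, and CANGTG in 6 against 39.5%. TGANTCA, the AP-1 core, was in 0 of the 8 against 6.7%. Oscar held the NFAT, PU.1 and E-box letters, Ctsk the PU.1 letters alone, and Tnfrsf11a E-box letters alone, in a window with 73.6% G and C against 43.2% for Ctsk. These are matches of letters, not tested sites.

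All 10 genes were detected in every one of the 69 bone libraries. Across the 51 CV libraries the most abundant were Ctsk, which encodes the collagen-degrading protease cathepsin K, at 162.03 to 5297.7 TPM with a median of 355.5, and Acp5, the tartrate-resistant acid phosphatase TRAP, at 95.93 to 4269.62 TPM with a median of 330.9. The least abundant was Calcr, the calcitonin receptor, at 0.05 to 3.48 TPM and 2 to 131 counts, so its values carried more counting error than the others. Dcstamp, needed for precursors to fuse, ranged from 1.28 to 55.27 TPM. Its fusion partner Ocstamp ranged from 0.64 to 37.07 TPM. Ctsk and Acp5 thus lay far above the receptors and fusion genes on the TPM scale.

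The same CV group led every gene. Female cKO mice with leptin had the highest group median for all 10 genes, the 4 female groups held the top 4 medians for all 10, and no male group reached them. Female cKO CV leptin replicate 1 was the highest of the 51 CV libraries for all 10 genes, and the lowest was male for all 10. The ratio of the highest to the lowest CV library ran from 4.085 for Nfatc1 to 69.6 for Calcr. In LV, where the mice were all female, the same ratio ran only from 1.646 for Itgb3 to 4.899 for Calcr.

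**Figure D1:**
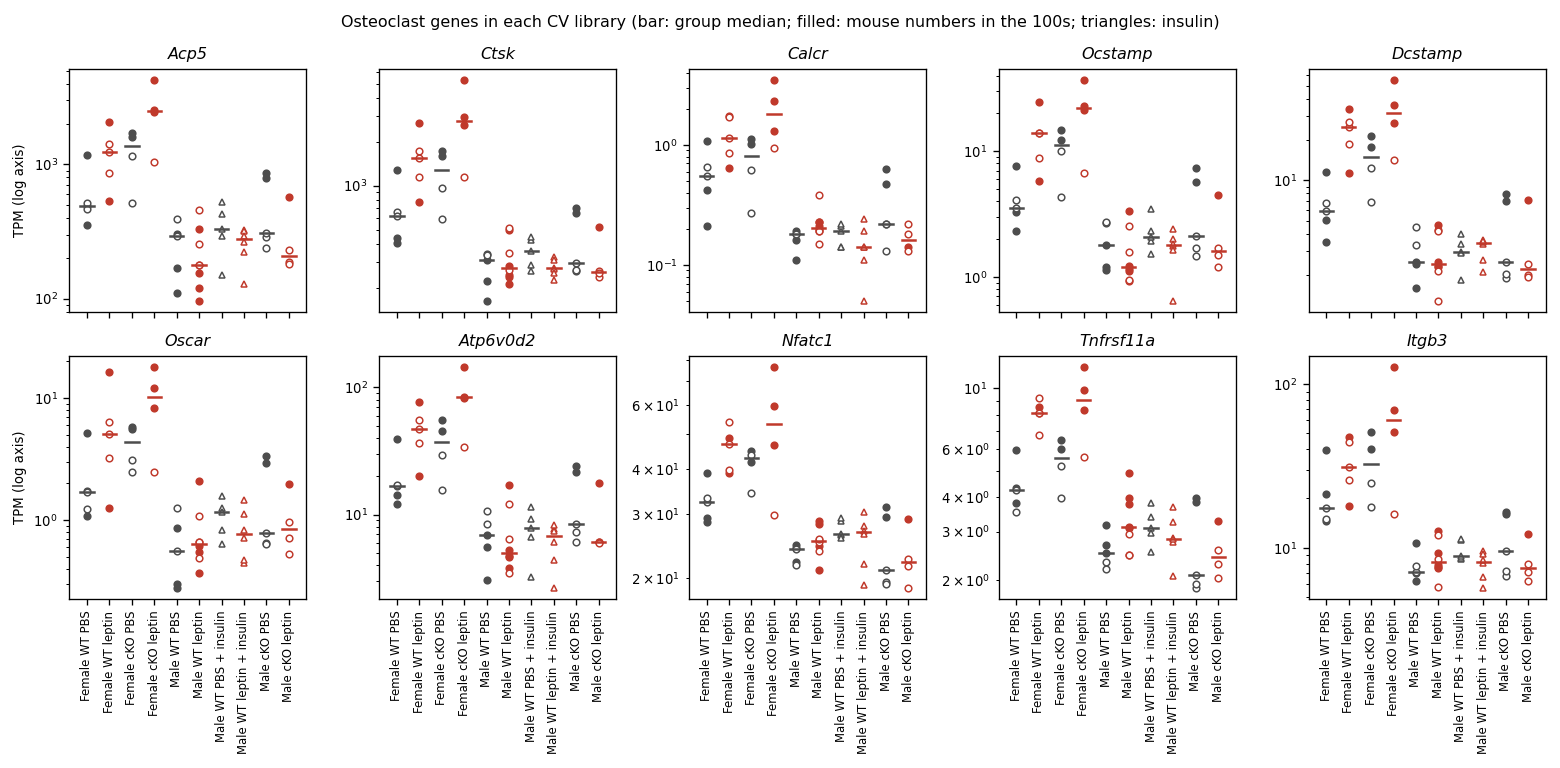
TPM (log axis) of the 10 osteoclast genes in each of the 51 CV libraries, by group; grey is PBS, red is leptin, triangles are mice with insulin, filled points are mice numbered in the 100s, open points all other mice, and bars are group medians. The 4 female groups at the left of each panel have the 4 highest medians, and the filled points lie highest in most cKO groups.

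iWAT gave the level of these genes outside bone. Calcr was listed at 0 in 8 of 10 iWAT libraries, with 0 to 2 counts, and Oscar had 0 to 4 counts. Acp5 stood at 222 to 514 TPM and Ctsk at 51 to 263 TPM in iWAT, overlapping their ranges in male CV. Both genes are therefore also measured in a tissue without bone. In bulk tissue fewer osteoclasts and less RNA per osteoclast cannot be told apart, for every result that follows.

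The first question was whether ICV leptin changed these genes in CV of female WT mice. Fold changes are log2 values from edgeR's quasi-likelihood test on counts, and a gene was called when its Benjamini-Hochberg adjusted p over the 14873 genes was under 0.05 and its log2 fold change at least 0.5 in size. All 10 genes were higher with leptin, and 3 of the 10 were called, against 5.04% of all tested genes in this comparison. The median log2 fold change of the 10 was 1.14, and that of all tested genes was -0.01.

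Tnfrsf11a, which encodes RANK, separated the groups without overlap. It stood at 4.33, 3.8, 5.97, 3.54 and 4.24 TPM with PBS and at 8.5, 8.1, 9.16, 8.09 and 6.75 TPM with leptin. Every leptin library was above every PBS library, and Tnfrsf11a was the 1 gene of the 10 for which this held, as it did for 6.56% of all genes. The means were 4.376 ± 0.9476 and 8.12 ± 0.8809 TPM (SD, n = 5 each), a log2 fold change of 0.86 (SE 0.156, adjusted p = 0.0108, edgeR).

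The 2 fusion genes had the largest log2 fold changes with all libraries in (without PBS replicate 3 Oscar, at 2.23, was above Dcstamp, at 2.15, and Ocstamp, at 2.06). Dcstamp stood at 3.5, 5.11, 11.45, 5.94 and 6.81 TPM with PBS and at 11.35, 33.74, 24.87, 18.71 and 27.01 TPM with leptin. The groups touched only because PBS replicate 3, at 11.45, lay just above leptin replicate 1. Its log2 fold change was 1.81 (SE 0.361, adjusted p = 0.0150, edgeR). Ocstamp went from 2.3, 3.29, 7.65, 4.12 and 3.55 TPM to 5.82, 24.52, 14.11, 8.76 and 14.07 TPM, with the same PBS library above the same leptin library. Its log2 fold change was 1.70 (SE 0.431, adjusted p = 0.0339, edgeR).

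The costimulatory receptor gene and the resorption genes were higher by similar folds, with a wider spread, and missed the threshold. Oscar stood at 1.08, 1.73, 5.19, 1.69 and 1.24 TPM with PBS and at 1.27, 16.41, 6.33, 3.22 and 5.03 TPM with leptin, so that 3 of the 5 leptin libraries lay within the PBS range, which PBS replicate 3 set, and another lay far above every other. Its log2 fold change was 1.59 (SE 0.667, adjusted p = 0.156). Ctsk stood at 406.99, 437.4, 1286.19, 659.95 and 621.06 TPM with PBS and at 768.15, 2670.88, 1730.31, 1149.39 and 1558.19 TPM with leptin, and PBS replicate 3 again lay among the leptin libraries. Its log2 fold change was 1.21 (SE 0.398, adjusted p = 0.0811). Atp6v0d2, a subunit of the proton pump that acidifies the resorption pit, had 1.25 (SE 0.407, adjusted p = 0.078), Calcr 1.07 (SE 0.425, adjusted p = 0.137) and Acp5 1.02 (SE 0.412, adjusted p = 0.144).

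Nfatc1, the gene of the lineage's transcription factor, passed the adjusted p but not the fold. It stood at 28.63, 29.33, 38.93, 32.34 and 33.32 TPM with PBS and at 38.88, 48.78, 53.83, 39.86 and 46.86 TPM with leptin. Only PBS replicate 3 reached the leptin range, and the log2 fold change was 0.49 (SE 0.132, adjusted p = 0.0429). Itgb3, the integrin chain by which osteoclasts hold on to bone and which platelets also carry, had 0.61 (SE 0.344, adjusted p = 0.29). Without PBS replicate 3, 8 of the 10 genes were called against 5.18% of all genes, all but Oscar and Itgb3. Without any 1 of PBS replicates 1, 2, 4 or 5 or leptin replicate 5, Ocstamp was lost and 2 genes were called.

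**Figure D2:**
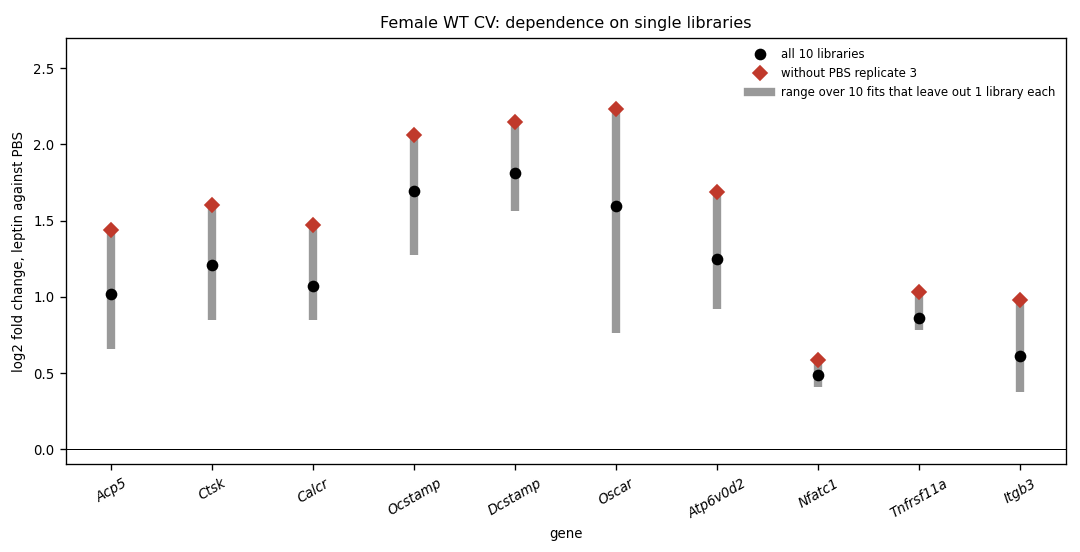
Log2 fold change of leptin against PBS in female WT CV for each of the 10 genes, with all 10 libraries (black), without PBS replicate 3 (red) and as the range over the fits without 1 library each (grey bars). Tnfrsf11a and Dcstamp were called in all 10 such fits, and the fit without PBS replicate 3 called 8 of the 10 genes.

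Other cells of the bone moved in the same comparison. Of 10 osteoblast and osteocyte markers, 3 rose, and their summed level was 2822 to 7270 TPM with PBS and 5777 to 17550 TPM with leptin. Of 8 macrophage markers 2 rose, of 7 erythroid markers 4 rose and 1 fell (sums of 3909 to 11900 and 10650 to 44520 TPM), and of 5 adipocyte markers 3 fell (5868 to 7715 and 3610 to 6225 TPM). The 8 skeletal muscle, 7 megakaryocyte, 7 cartilage and 8 neutrophil markers had no call. The muscle sum was 19110 to 43010 TPM with PBS (median 41320) and 15200 to 37570 TPM with leptin (median 16130). With a muscle score as a covariate 8 of the 10 osteoclast genes were called in place of 3, and 857 of all tested genes in place of 749. The neutrophil sum was 2248 to 11770 TPM with PBS and 1086 to 5538 TPM with leptin. The part of these shifts in the osteoclast genes was not tested.

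In female cKO CV the folds were of the same size but the mice spread more widely. Dcstamp stood at 21.41, 17.65, 12.33 and 6.92 TPM with PBS and at 55.27, 35.97, 26.71 and 14.22 TPM with leptin. Ctsk stood at 1714.69, 1592.25, 956.8 and 588.53 TPM with PBS and at 5297.7, 2968.32, 2595.01 and 1141.26 TPM with leptin. In each, the lowest leptin mouse lay within the PBS range. All 10 genes were higher with leptin, by 0.42 for Nfatc1 to 1.45 for Calcr on the log2 scale, and 0 were called, against 0.0269% of all genes. An unadjusted p under 0.05 (edgeR) was seen for 8 of the 10, against 11.6% of all genes. The adjusted p ran from 0.284 for Tnfrsf11a to 0.488 for Itgb3 (edgeR). DESeq2 called 1 of the 10, and 219 of all tested genes. Without leptin replicate 1 the log2 fold changes ran from 0.23 to 1.09, and 4 of the 10 had an unadjusted p under 0.05.

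In male CV none of the genes was called in either genotype. In male WT mice Ctsk stood at 311.46, 162.03, 221.36, 340.06 and 334.18 TPM with PBS, and with leptin at a lowest of 212.16, a median of 273.9 and a highest of 509.95 TPM. The log2 fold changes of the 10 genes ran from -0.31 for Ocstamp to 0.36 for Calcr, 7 of them positive, and 0 genes were called against 1.75% of all genes. In male cKO mice all 10 log2 fold changes were negative, from -0.85 for Calcr to -0.02, and 0 were called against 0.188% of all genes. There Ctsk stood at 706.27, 652.21, 259.27, 263.16 and 295.26 TPM with PBS and at 519.15, 261.68, 238.71 and 254.09 TPM with leptin. The higher libraries of both groups were replicates 1 and 2 with PBS and replicate 1 with leptin. Without that leptin library the log2 fold changes ran from -1.14 to -0.09, and 0 of the 10 were called against 0.0538% of all genes, with 3 at an unadjusted p under 0.05 (Acp5, Ocstamp and Atp6v0d2). Of the 10 genes, 0 had an unadjusted p under 0.05 in male WT or in male cKO CV with all libraries in (edgeR). The shares of all genes were 19% and 9.66%. DESeq2 called 0 of the 10 in each.

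When the female mice of both genotypes were fitted together with genotype as a term, a fit added after seeing the data, 8 of the 10 genes were called against 5.98% of all genes. The log2 fold changes of those called ran from 0.83 for Tnfrsf11a to 1.53 for Dcstamp. Nfatc1 (0.46) and Itgb3 (0.78) were not called. Over the 18 fits without 1 mouse the count ran from 6 to 10; it was 6 without female cKO leptin replicate 1 and 10 without female WT PBS replicate 3 or female cKO leptin replicate 4. In the same fit for males 0 were called against 2.74% of all genes, 2 of the 10 were positive, and the values ran from -0.45 to 0.19.

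The fit of all 4 sex and genotype groups, with 21 leptin and 19 PBS mice, called Ctsk (0.56, SE 0.217, adjusted p = 0.0495), Calcr (0.66, SE 0.239, adjusted p = 0.0375) and Dcstamp (0.71, SE 0.252, adjusted p = 0.0334), against 5.37% of all genes. Tnfrsf11a (0.49, adjusted p = 0.000713) and Nfatc1 (0.23, adjusted p = 0.017) passed the adjusted p but not the fold. These calls rested on single mice: over the 40 fits without 1 mouse the count ran from 0 to 5 and was 0 without any 1 of female cKO leptin replicate 1, female WT leptin replicate 2, female WT PBS replicates 1, 2 or 5, or female cKO PBS replicates 3 or 4. It was 1 without female cKO leptin replicate 2, female WT leptin replicate 3, female WT PBS replicate 4 or male cKO leptin replicate 1, and 5 without male cKO PBS replicate 1. In males alone Ctsk, Calcr and Dcstamp had the opposite sign (-0.04, -0.18 and -0.15).

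Whether the leptin effect differed by sex or genotype was tested directly. All 10 genes had a smaller leptin effect in males than in females, by 0.43 for Nfatc1 to 1.88 on the log2 scale with unadjusted p from 0.000256 to 0.02, while 7.26% of all genes had an unadjusted p under 0.05. Of the 10, 0 were called against 0.00672% of all genes (adjusted p from 0.238 to 0.595, edgeR). DESeq2 called 2, Ocstamp and Dcstamp, and 11 of all tested genes. The interaction with genotype was -0.56 to -0.06 and called 0 of the 10, against 0% of all genes. At an unadjusted p under 0.05 (edgeR) were 0 of the 10 and 5.99% of all genes, and DESeq2 called 0 of the 10.

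The level of these genes also differed by sex at baseline, in the PBS mice. In WT CV with PBS all 10 genes were lower in males, and 5 were called against 7.96% of all genes. Itgb3 stood at 14.65, 21.43, 39.41, 15.06 and 17.45 TPM in females and at 7.01, 6.25, 10.65, 7.15 and 7.77 TPM in males, with no overlap, a log2 difference (male minus female) of -1.26 (SE 0.274, adjusted p = 0.00625). Calcr stood at 0.42, 0.21, 1.08, 0.66 and 0.55 TPM in females and at 0.19, 0.16, 0.11, 0.18 and 0.18 TPM in males, -1.58 (SE 0.415, adjusted p = 0.0161). For 6 of the 10 the sexes did not overlap, as was so for 27.2% of all genes.

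Atp6v0d2 (-1.29, SE 0.366, adjusted p = 0.0224), Ctsk (-1.08, SE 0.315, adjusted p = 0.0254) and Tnfrsf11a (-0.53, SE 0.162, adjusted p = 0.0314) were the other calls. Oscar (-1.51), Acp5 (-1.01), Dcstamp (-0.97) and Ocstamp (-0.89) had adjusted p from 0.051 to 0.083, and Nfatc1 (-0.27) passed the adjusted p alone. The count was 3 without male WT PBS replicate 2 and 7 without female WT PBS replicate 1 or male WT PBS replicate 5. Without female WT PBS replicate 3, the library that stood apart, 4 were called against 6.99% of all genes: Tnfrsf11a (-0.36) fell under the fold threshold, Ctsk (-0.69) was still called, and Oscar (-0.87), Acp5 (-0.59), Dcstamp (-0.63) and Ocstamp (-0.52) were not. All 10 values were nearer to 0 without it, from -1.18 to -0.17, and 7 had an unadjusted p under 0.05. Osteoblast markers were lower in males as well, with 7 of 10 called and sums of 1021 to 2454 TPM in males against 2822 to 7270 in females, and muscle markers summed to 41420 to 50700 TPM in males against 19110 to 43010. The part of these in the sex difference was not tested.

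ATGL loss was compared with WT under PBS. In female CV all 10 genes were higher in cKO, by 0.28 to 1.29 on the log2 scale, and 0 were called against 0% of all genes (adjusted p from 0.36 to 0.86, edgeR). In male CV all 10 were higher, by 0.05 to 1.27, and 0 were called against 0% of all genes, and in female LV the values ran from -0.21 to 0.29 with 0 called against 0% of all genes. At an unadjusted p under 0.05 there were 4 of the 10 in female CV, 6 in male CV and 0 in female LV (edgeR). The shares of all genes were 9.92%, 5.26% and 2.61%. DESeq2 called 0 of the 10 in each. Without female WT PBS replicate 3 the female CV values ran from 0.44 to 1.67 with 9 of the 10 at an unadjusted p under 0.05 and 0 called. With the series of mouse numbers described next as a term, a fit added after seeing the data, 0 were called in female CV and in female LV and 4 in male CV (Ctsk 1.43, Ocstamp 2.11, Dcstamp 1.69 and Atp6v0d2 2.01, adjusted p = 0.0389 each, edgeR), where 14 of all genes were called. In males the mice numbered in the 100s alone held both genotypes, so that value rests on 2 cKO and 3 WT mice.

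The spread among cKO mice followed the mouse numbers of the labels, a description added after seeing the data. Apart from the insulin mice, the numbers ran in the 100s and 600s for WT and in the 100s, 600s and 5400s for cKO mice, and the labels do not call them a batch. In male cKO CV with PBS the 2 mice of the 100s lay above the 3 others for all 10 genes, as they did for 59.7% of all genes, with a median log2 ratio of 1.55 over the 10. Their summed level of the 10 genes was 1584 to 1604 TPM against 544.5 to 644.2, and the osteoblast sum moved with it, at 5131 to 6988 against 1206 to 1886 TPM. In female cKO CV with PBS 9 of the 10 genes were higher in both 100s mice than in both others, against 16.4% of all genes, and with leptin all 10 were higher in the 3 mice of the 100s than in the 1 other, against 47.4%. In WT CV the corresponding counts were 0 in females with PBS (11.3% of all genes), 0 in females with leptin (5.21%), 1 in males with PBS (16%) and 1 in males with leptin (15.8%). In male WT CV with PBS 4 of the 10 lay wholly below in the 100s mice, against 6.23% of all genes.

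Held to mice of the 100s, leptin was above PBS in female cKO CV without overlap for 9 of the 10 genes (3 mice against 2; 10.8% of all genes), by 0.49 to 1.18 on the log2 scale. Outside the 100s the 1 female cKO leptin mouse was above both PBS mice for 5 genes and below both for 3, against 18.8% and 64.7% of all genes, with a median log2 ratio of 0.31 over the 10. Outside the 100s in male cKO CV 0 genes lay wholly above and 2 wholly below with leptin (3 mice against 3), against 7.23% and 6.84% of all genes. There all 3 PBS mice were of the 5400s, while 2 leptin mice were of the 600s and 1 of the 5400s. Treatment and number series were therefore not separated in that comparison. Within the 100s in male cKO CV the 1 leptin mouse was below both PBS mice for 9 of the 10, against 47.7% of all genes. The cKO mice with PBS were above WT without overlap for 9 genes in females (19.7% of all genes) and 10 in males (30.3%) within the 100s, with median log2 ratios of 1.14 and 1.82. Outside the 100s the median ratio was 0.40 in females and -0.31 in males, where 2 of the 10 were higher in cKO. The direction of the male cKO difference thus depended on the mouse number series, and genotype and series could not be separated in the 5400s, which held cKO mice only.

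In LV of the same females leptin gave no call. The log2 fold changes ran from -0.14 to 0.34 in WT, with 0 of the 10 called against 0% of all genes, and from -0.04 to 0.97 in cKO, also with 0 called against 0% of all genes. In each, 1 of the 10 had an unadjusted p under 0.05 (edgeR), against 14.7% of all genes in WT and 8.95% in cKO. DESeq2 called 0 of the 10 in each. Dcstamp stood at 5.65, 4.24, 5.65, 5.56 and 6.55 TPM with PBS and at 6.25, 6.84, 7.74, 7.72 and 5.4 TPM with leptin in WT. Tnfrsf11a stood at 1.69, 1.81, 1.86, 1.63 and 2.78 TPM with PBS and at 2.13, 1.71, 2, 2.43 and 1.82 TPM with leptin in WT. The leptin and PBS libraries of LV interleaved for both genes. Calcr in cKO was apart: it stood at 0.69, 0.98, 1.84 and 1.49 TPM with PBS and at 2.19, 3.16, 2.04 and 3.38 TPM with leptin, without overlap, as was so for 4.2% of all genes, and its log2 fold change of 0.97 (SE 0.267) had an adjusted p of 0.461. With both genotypes together 0 of the 10 were called in LV against 1.11% of all genes, with Calcr at 0.61 (adjusted p = 0.080) and Nfatc1 at 0.16 (adjusted p = 0.061). DESeq2 called 1 of the 10, Calcr.

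The difference between the sites was tested over the same mice, without the mouse as a term in the fit. The leptin effect in female WT mice was larger in CV than in LV for all 10 genes, and 2 were called against 2.53% of all genes, Dcstamp by 1.57 (SE 0.405, adjusted p = 0.0359) and Tnfrsf11a by 0.86 (SE 0.225, adjusted p = 0.0371). Ocstamp had 1.71 with an adjusted p of 0.064. The count fell to 0 without any 1 of leptin mice 2, 4 or 5 or PBS mice 1, 2, 4 or 5, to 1 without leptin mouse 3, and was 4 without PBS mouse 3.

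The sites also differed with PBS alone. Of the 10 genes, 8 were called lower in CV than in LV of female WT mice, against 66.6% of all genes called in either direction, with counts after TMM scaling (2 of the 8, Ctsk and Dcstamp, turned to higher on TPM). Itgb3 stood at 76.68, 61.04, 64.06, 53.2 and 71.68 TPM in LV and between 14.65 and 39.41 TPM in CV, a log2 difference (CV minus LV) of -2.68. Oscar stood at 7.56, 7.47, 9.13, 10.08 and 14.05 TPM in LV and between 1.08 and 5.19 TPM in CV, a log2 difference of -3.26. Neither gene overlapped between the sites. Nor did Nfatc1 and Tnfrsf11a, but these were higher in CV on TPM, by ratios of mean TPM of 2.16 and 2.24, so that 4 of the 10 did not overlap against 83% of all genes.

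Calcr (-2.46), Acp5 (-1.86), Atp6v0d2 (-1.84), Ocstamp (-1.26), Dcstamp (-0.84) and Ctsk (-0.72, adjusted p = 0.030) were the other calls, while Tnfrsf11a (-0.01) and Nfatc1 (0.04) were not called. Ctsk lost its call without mouse 1, 2, 4 or 5. Scaling mattered here: on TPM the median gene was 0.87 log2 higher in CV, 6 of the 10 genes were lower in CV, and Ctsk, Dcstamp and Tnfrsf11a turned to higher (mean TPM ratios of CV to LV of 1.31, 1.19 and 2.24). The share of called genes that were higher in CV was 52.4% with TMM scaling and 86.3% on TPM. Oscar, Itgb3 and Calcr, with TPM ratios of 0.226, 0.331 and 0.389, stayed lower on either scale, as did Acp5, Atp6v0d2 and Ocstamp. All 8 neutrophil, 7 megakaryocyte and 7 erythroid markers were lower in CV and all 5 adipocyte markers higher. Itgb3 is also a platelet gene, and its share from those cells was not tested.

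**Figure D3:**
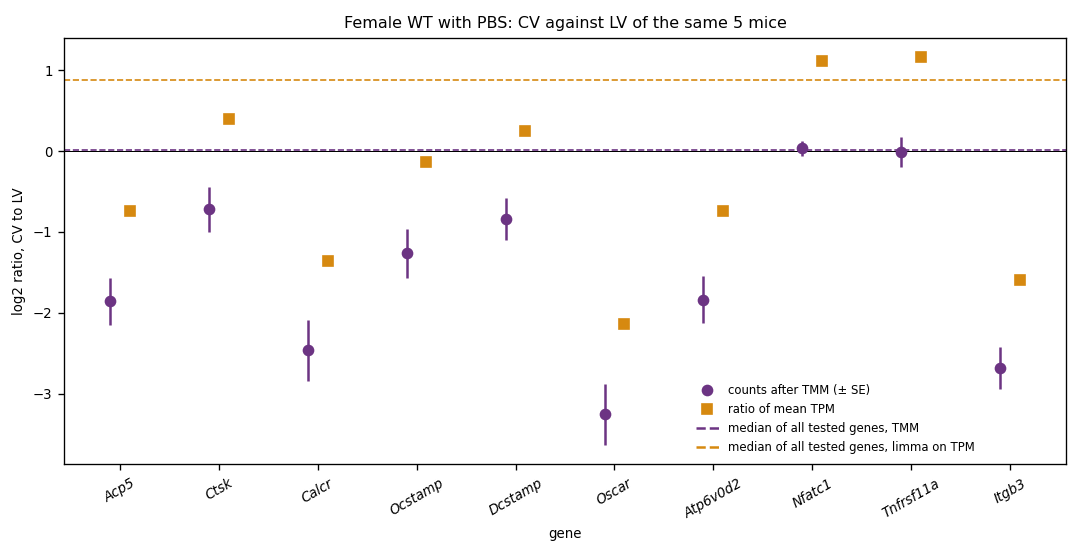
Log2 ratio of CV to LV for the 10 genes in the 5 female WT mice with PBS, from counts after TMM scaling (with SE) and from mean TPM; dashed lines are the median of all tested genes on each scale. Oscar, Itgb3 and Calcr lie below 0 on both scales, and Ctsk, Dcstamp and Tnfrsf11a change sign between them.

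Insulin pellets were given to male WT mice with PBS or leptin. Leptin with insulin against leptin alone gave log2 differences of -0.55 (Calcr) to 0.24 (Acp5), with 0 of the 10 called against 0.363% of all genes. Leptin with insulin against PBS with insulin gave -0.35 to 0.11, with 0 called against 0.558%. PBS with insulin against PBS gave -0.02 to 0.64, with 0 called against 0% of all genes, and the interaction of leptin and insulin gave -0.60 to 0.17, with 0 called against 0% of all genes. Of the 10, 1 (Calcr) had an unadjusted p under 0.05 in the first of these fits and 0 in the others (edgeR). The shares of all genes were 16.6% in the first and 15.5%, 6.56% and 9.31% in the others, in the order given. DESeq2 called 0 of the 10 in each. Ctsk stood at 284.41, 355.47, 422.26, 260.74 and 445.59 TPM with PBS and insulin and at 326.61, 227.63, 274.99, 266.91, 253.46 and 311.37 TPM with leptin and insulin. All these values lay within the range of male WT mice without insulin. The insulin mice carried numbers in the 300s and 400s that no other mice had, so insulin and number series cannot be told apart.

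In iWAT leptin gave 0 calls among the 10 against 15.1% of all genes. At an unadjusted p under 0.05 (edgeR) were 3 of the 10, against 40% of all genes. Acp5 was lower by -0.42 (adjusted p = 0.0787), with TPM that did not overlap, as for 18.7% of all genes, and Ctsk was higher by 0.99 (adjusted p = 0.0682). DESeq2 called Ctsk there, and 2486 of all tested genes.

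The rest of the pathway was read from 6 lists of 60 genes, all of which were tested. In female WT CV 5 of the 60 rose with leptin and 1 fell, where 5.04% of all genes were called, and 52 had a positive log2 fold change. Mmp9, a matrix protease of osteoclasts and neutrophils, had the largest rise named by the rule, from 464.1 ± 183.6 to 1194 ± 377.2 TPM (SD, n = 5 each), a log2 fold change of 1.36 (SE 0.311, adjusted p = 0.0243). Tyrobp, the adaptor DAP12 that relays costimulation, rose by 0.65 (adjusted p = 0.0102), and Spi1, which encodes PU.1, by 0.59 (adjusted p = 0.0254). The others, named after their values were seen, were Src and Adam12, which rose, and the repressor Bcl6, which fell. Csf1r, the receptor for the survival factor M-CSF, had 0.44 (adjusted p = 0.0254), and Csf1, its ligand, 0.37 (adjusted p = 0.031), both under the fold threshold.

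RANKL and its decoy were not called in these mice. Tnfsf11, which encodes RANKL, was at 6 ± 1.19 TPM with PBS and 7.028 ± 2.596 TPM with leptin in female WT CV (SD, n = 5 each), a log2 fold change of 0.17 (adjusted p = 0.66). Tnfrsf11b, which encodes osteoprotegerin, had -0.40 (adjusted p = 0.17). In male WT CV Tnfsf11 had 1.08 (adjusted p = 0.20), with leptin mice from 3.43 to 22.19 TPM, while the 10 osteoclast genes had no call there. Over all CV groups Tnfsf11 was called at 0.50 (SE 0.193, adjusted p = 0.0491) and Tnfrsf11b passed the adjusted p alone at -0.24 (adjusted p = 0.0335). There 3 of the 60 genes rose and 0 fell, a share near the 5.37% of all genes called. In the fit of females of both genotypes 16 of the 60 rose and 0 fell (5.98% of all genes called), and in that of males 1 rose (2.74%).

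Elsewhere the lists moved as follows. With leptin, 0 of the 60 were called in female cKO CV, male cKO CV, female WT LV and female cKO LV, 1 rose in male WT CV (1.75% of all genes called), and 10 rose and 1 fell in iWAT (15.1%), a share near that of all genes. Males had 11 of the 60 lower than females in WT CV with PBS (7.96% of all genes called), Mmp9 among them by -1.23 (adjusted p = 0.0132). CV had 13 higher and 29 lower than LV after TMM scaling, a share near the 66.6% of all genes called, and 30 higher and 13 lower on TPM (limma), so the direction of the split turned with the scale. The largest difference was in Car2, the carbonic anhydrase that makes protons for the pump and is also abundant in red cells, at 15.31 ± 1.601 TPM in CV and 1091 ± 60.89 TPM in LV, a log2 difference of -7.21. Lower too were Adam8 (-3.49), Il6 (-3.48), Il1b (-3.15), Tyrobp (-3.12), Btk (-2.61), Spi1 (-2.26), Plcg2 (-2.25), Fcer1g (-2.13), Cd47 (-1.82) and Mmp9 (-0.98). Higher in CV were Sh3pxd2a (2.32), Lgr4 (2.17), Tnfrsf11b (1.23) and Csf1 (1.23).

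The 10 genes rose and fell together from mouse to mouse. Over the 51 CV libraries, on log2(TPM + 1) with group means removed, the 45 pairs had Pearson's r from 0.455 to 0.951 with a median of 0.801. With the mean of each group and number series removed, over the 46 libraries that had a partner, the range was 0.306 to 0.951 and the median 0.755. Ocstamp had the highest median with the other 9 genes, 0.912, and Tnfrsf11a the lowest, 0.588. Genes of 1 library share its depth and composition, so these are descriptions.

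**Figure D4:**
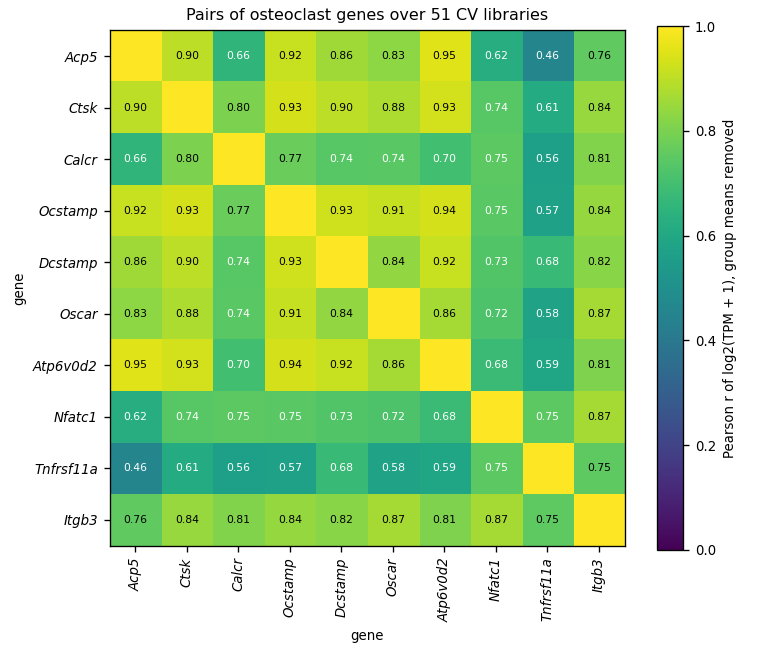
Pearson's r between each pair of the 10 genes over 51 CV libraries, on log2(TPM + 1) with group means removed. Values run from 0.455 to 0.951, with Tnfrsf11a the most loosely tied to the rest.

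Likeness to the mean of the 10 over those libraries was ranked only among tested genes outside all the pathway and marker lists. The genes most like it there were Slc37a2 (r 0.97, rho 0.966), a sugar-phosphate transporter, and Glb1 (0.935, 0.884), the lysosomal beta-galactosidase. Then came Nyap2 (0.932, 0.92), Atp6v1a (0.919, 0.873), a proton pump subunit, and Pheta1 (0.914, 0.866). Of the marker lists, the mean of the 10 ran most closely with neutrophil (r 0.584, rho 0.552) and osteoblast markers (0.558, 0.587), with r of 0.52 and 0.567 without the 2 libraries farthest from the median. It ran least with muscle (0.108, -0.021) and adipocyte markers (-0.041, -0.107).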

How the data were processed

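The authors deposited 1 table of estimated counts of reads per gene and 1 of TPM, for 79 libraries, each from 1 tissue of 1 mouse. Per the study's methods, oligo dT-selected RNA was sequenced on DNBSEQ, filtered with SOAPnuke and aligned with HISAT and Bowtie2 to GRCm38.p6. The counting tool and strand setting are not given in the sources used here. Of the count values deposited, 51 in 6 genes were not whole, and all were rounded. Groups came from the sample labels. Genes averaging 0.4 TPM or more were kept (14873 of 39063). edgeR 4.0.16 (R 4.3.3) was run with TMM scaling and its quasi-likelihood test on the groups compared. Sex and genotype were terms where these were pooled. Sites were fitted without a block. For CV against LV the mouse as a block was an alternative. For the difference of the leptin effect between sites the alternative block was the replicate number, not the mouse. Called genes had a Benjamini-Hochberg adjusted p under 0.05 and a log2 fold change of at least 0.5 in size. DESeq2 1.42.0 and limma 3.58.1 on log2(TPM + 1) were alternatives, as were other filters and scalings, the replicate number as a block, and each library left out. The standard error was derived from the edgeR F statistic. The scripts were tested on simulated data. The 10 genes, the pathway and marker lists and the genes named were chosen with earlier results of these data known. From the lists, genes called for leptin over all CV, for leptin over all LV or for CV against LV were ranked by size of change. The top 12, all from CV against LV, were named with Tnfsf11, Tnfrsf11b, Csf1, Csf1r and Mmp9. Named too were the 5 genes outside the lists most like the mean of the 10. Same-numbered CV and LV libraries of a group came from the same mouse by the mouse numbers of the labels. Their residual r ran from -0.005, mean 0.115, with PBS and from 0.043, mean 0.194, with leptin. Calcr and Oscar had libraries with under 10 counts in CV, where counting error was widest.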

Additional observations from a re-analysis of the deposited data

Results flagged for a closer look

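Among 160 combinations of gene and group with 4 to 10 libraries, 19 had a highest or lowest library farther from the rest than Dixon's criterion allows, which chance alone gives in about 1 of 20 groups. Most lay in the libraries already named. Female WT CV PBS replicate 3 was high for Acp5 (1173.12 TPM), Ctsk (1286.19), Oscar (5.19), Atp6v0d2 (39.42) and Itgb3 (39.41). Male cKO CV leptin replicate 1 was high for Acp5 (575.03 TPM), Ctsk (519.15), Ocstamp (4.47), Dcstamp (7.18) and Atp6v0d2 (17.86). In male WT CV with leptin, replicate 8 was high for Calcr (0.38 TPM) and replicate 1 for Oscar (2.1 TPM). In female WT LV with PBS, replicate 5 was high for Tnfrsf11a (2.78 TPM). In iWAT, leptin replicate 3 was high for Dcstamp (5.8 TPM) and Atp6v0d2 (17.96), leptin replicate 1 for Calcr (0.02), Tnfrsf11a (4.36) and Itgb3 (13.56), and PBS replicate 3 for Calcr (0.05), where Calcr is listed at 0 in most libraries.

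The leptin effect differed between CV and LV of female WT mice by test for 2 genes, by 1.57 on the log2 scale for Dcstamp and by 0.86 for Tnfrsf11a.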

How the results depend on the processing

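Over 21 comparisons and 152 counts under other settings, 133 of the counts of called osteoclast genes stayed within 1.5 times the count reported. The 133 include counts of 0 that stayed at 0 and could not fall. Another 17 were higher and 2 lower, and the cause of these changes was not tested. For leptin in female WT CV 3 were called (749 of all genes), 8 with a skeletal muscle score as a covariate (857) and 6 in 1 fit of all CV groups (824). In female cKO CV the 0 became 1 with DESeq2 (219 of all genes) and 3 in 1 fit of all CV groups (507). In iWAT the 0 became 1 with DESeq2 (Ctsk, with 2486 of all genes) and 1 with limma (Acp5, with 1886). Between the sexes the 5 (1184 of all genes) became 8 with DESeq2 (1269) and 8 with limma (1636). Over all CV groups the 3 became 1 with limma (407 of all genes), 5 with no fold threshold (4008) and 5 with the muscle score (853). The count was 8 in females only (890 of all genes) and 0 in males only (407), where Ctsk (-0.038), Calcr (-0.177) and Dcstamp (-0.145) reversed. In LV of both genotypes the 0 became 1 with DESeq2, for the sex interaction 2 with DESeq2, and for cKO against WT in male CV 4 with the mouse number series as a term. Between CV and LV, limma on TPM reversed Ctsk (0.281), Dcstamp (0.139) and Tnfrsf11a (0.861). Without 1 library each, the count ran from 2 to 8 for leptin in female WT CV, 0 to 1 in iWAT, 3 to 7 between the sexes, 0 to 5 over all CV groups, 7 to 8 between CV and LV, 0 to 4 for the difference of the leptin effect between sites, 0 to 1 in LV of both genotypes and 6 to 10 in female CV of both genotypes, and it stayed at 0 in each other comparison.

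The replicate numbers of leptin and PBS mice are only numbers, as the labels give these mice different mouse numbers. The lowest correlation of same-numbered deviations lay between -0.402 and -0.124 in every such comparison, and the mean between -0.121 and 0.151. For CV and LV of the same mice the mean was 0.115 with PBS and 0.194 with leptin. This correlation thus does not separate the 2 kinds of pair. With the replicate number as a block the count was 4 in female WT CV (832 of all genes), 1 in female cKO CV (13) and 8 between the sexes (1339). It was 2 over all CV groups (771) and 1, Calcr, in LV of both genotypes (171). For CV against LV the number marks the same mouse, and the block gave 8, the count without it. For the difference between sites each number joins a leptin mouse and a PBS mouse, so the mouse was not the block there. That fit gave 2, also the count without the block. The block changed no other count.

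Counts over all genes moved more. Leptin in female cKO CV called 4 genes, 219 with DESeq2, 507 in 1 fit of all CV groups and 13 with the block. Male WT CV called 260, 465 with DESeq2, 416 with the mouse series, 418 in 1 fit and 65 with the block. Male cKO CV called 28, 212 with DESeq2, 65 with the muscle score, 44 in 1 fit, 14 with the block and 13 with the mouse series. With DESeq2, the 0 of WT and cKO LV became 142 and 72, the 0 of the genotype comparisons 47 in female CV, 40 in male CV and 14 in LV, and the 54 and 83 of the leptin comparisons with insulin 174 and 230. limma gave 407 over all CV groups (798), 40 in LV of both genotypes, where edgeR called 1.11% of genes, and 16 for leptin with insulin against leptin. With no fold threshold the counts were 1306 in female WT CV (749), 3872 in iWAT (2248), 3917 between the sexes (1184), 4008 over all CV groups and 805 in LV. In CV, Calcr and Oscar had libraries with under 10 counts.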
